A study of Homo sapiens with 40 samples.

Results

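The genes examined here encode CTCF and the cohesin machinery: CTCF, RAD21, SMC1A, SMC3, STAG1, STAG2, NIPBL, WAPL, PDS5A and PDS5B. They were taken by symbol from a table of 62486 gene IDs, where all 10 were found, and all 10 passed the expression filter that left 17767 genes for testing. The cells were A549, an established human lung adenocarcinoma line that carries a K-RAS G12S allele. Control cells (CT) were compared with A549 cells whose SETDB1 gene, which encodes an H3K9 methyltransferase, had been disrupted with CRISPR/Cas9 from the PX458 plasmid (SETDB1 knockout, KO). RNA-seq had 3 libraries per genotype, and CTCF ChIP-seq and Hi-C had 2 libraries per genotype. For these assays each genotype is represented by 1 CTCF peak list and 1 list of TADs (topologically associating domains). Whether the KO cells are 1 clone, what the control cells received, and whether libraries came from separate cultures are not given in the sources used here, so p-values measure only the spread between these libraries.

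Cohesin is a ring that entraps DNA. The long ATPases SMC1A and SMC3 are closed by the kleisin RAD21, which also carries a STAG subunit. NIPBL loads the ring and drives the extrusion of chromatin loops, WAPL releases it with the help of PDS5 proteins, and CTCF, a zinc finger protein bound to DNA, stops it. Loops halted at CTCF sites give rise to many TAD boundaries, and the same rings hold sister chromatids together until mitosis.

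The libraries held 18065062 to 48364919 counts, the largest being KO replicate 2. The SETDB1 transcript, the check of the labels, was at 37.5, 39.6 and 38.7 CPM (counts relative to the library size after TMM scaling, which evens out differences in RNA composition) in control and 23.4, 21.2 and 21.1 CPM in KO, and fell by 0.82 on the log2 scale (SE 0.060, adjusted p 1.7e-12 in edgeR). All 9 genes listed for this epithelial line were detected. By an edgeR adjusted p under 0.05, 7 rose and 2 fell, beside 32.8% higher and 30.0% lower among all genes tested. Among the 9 were KRT19, KRT18 and KRT8 with log2 fold changes of 2.49, 1.73 and 1.54, and AKR1B10 with -0.87. The summed level of the 9 genes was 17978 to 18535 CPM in control and 24151 to 25020 CPM in KO. Of that sum ALDH1A1 held 7188 CPM in control and 9294 CPM in KO. Of 10 markers of blood, fibroblast, endothelium, muscle and liver, 9 matched a gene ID; CD3E and MYH7 were at 0 in every library, and the summed level was 3.42 to 3.78 CPM in control and 4.95 to 5.06 CPM in KO. COL1A1, at 3.10 CPM in control and 3.83 in KO, held most of that sum; its edgeR adjusted p was 0.041, and 0.070 under upper quartile scaling and 0.16 with DESeq2. COL3A1, the other marker in the fit, passed the filter only through KO and is not counted. The part of these markers in the results was not tested. Samples were bulk RNA, so fewer cells in a given stage and less RNA per cell cannot be told apart.

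SMC3 was the member that changed most, and the ring subunits RAD21, SMC1A and STAG2 fell with it by smaller amounts. WAPL and PDS5B also fell, CTCF rose slightly, and STAG1, NIPBL and PDS5A did not pass the test. In edgeR's quasi-likelihood test with Benjamini-Hochberg adjustment over all genes, 7 of the 10 genes had an adjusted p under 0.05, beside 62.8% of all genes tested. The share called is thus close to that of any gene in this comparison. Of the 7, 6 were lower and 1 was higher in KO, beside 30.0% lower and 32.8% higher over all genes. Control and KO libraries were fully separated in CPM for 7 of 10, beside 65.8% of all genes. The median log2 fold change of the 10 was -0.19, against 0.0038 over all genes, and their median absolute change was 0.19, against 0.34. Except for SMC3, each absolute change was below the 0.34 of all genes. RAD21, the next largest, was above 41.2% of genes. All genes tested were not matched to the members by level.

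**Figure D1:**
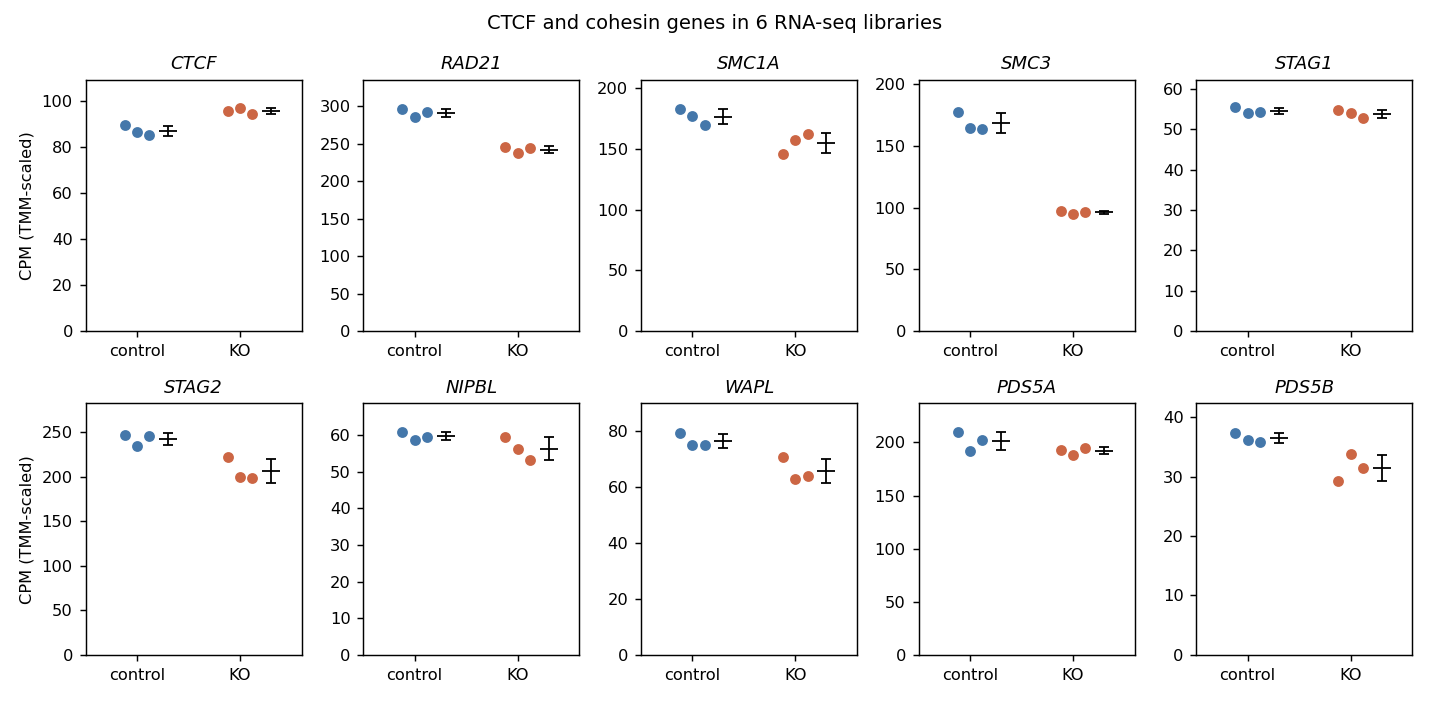
Level of each gene in CPM (y axis, from 0) in the 3 control and 3 KO RNA-seq libraries (points), with mean ± SD beside them. The control and KO points of SMC3 are the farthest apart, at a mean of 169 and 96.1 CPM, whereas those of STAG1 overlap.

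Among the ring subunits, SMC3 (ENSG00000108055, chromosome 10), the ATPase arm that is acetylated when cohesion is established, was measured at 178, 165 and 163 CPM in the control libraries and 97.3, 94.5 and 96.4 CPM in the KO libraries. Every KO library lay far below every control library. SMC3 fell by 0.81 on the log2 scale (SE 0.045; edgeR adjusted p 3.7e-15), to 57.0% of its control level. Of all genes tested, 80.4% had a smaller absolute change. A processed copy, SMC3P1, held 12 to 36 counts per library, at most 0.773% of those of SMC3.

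RAD21 (ENSG00000164754), the kleisin that separase cuts at anaphase, was at 296, 285 and 292 CPM in control and 246, 238 and 244 CPM in KO. The groups did not overlap, and RAD21 fell by 0.27 (log2; SE 0.040; edgeR adjusted p 1.6e-06). SMC1A (ENSG00000072501, chromosome X), the other ATPase arm, was at 183, 177 and 170 CPM in control and 146, 157 and 162 CPM in KO. Its groups did not overlap either, though the gap between the lowest control and the highest KO library was narrow. The log2 fold change of SMC1A was -0.19 (SE 0.045; edgeR adjusted p 0.00082). The median change of its neighbours on the X chromosome, the tested genes in a window of 51 around it, was 0.12, and relative to it the value was -0.30.

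The ratio of SMC3 to SMC1A counts within a library needs no scaling between libraries, although it is not corrected for gene length. It was 0.971, 0.930 and 0.961 in control and 0.666, 0.601 and 0.595 in KO. In KO the ratio was 65.0% of the control ratio, a log2 difference of -0.62, with no overlap between genotypes. The exact two-sided permutation p was 0.10, the smallest that 3 against 3 libraries allow, and 0.13 after adjustment over 4 pairs of members. Set against RAD21, a pair added after the values were seen and not tested, the SMC3 ratio went from 0.600, 0.577 and 0.559 in control to 0.396, 0.398 and 0.395 in KO. Transcripts of the ring subunits thus did not fall in equal proportion in these libraries.

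The STAG paralogs, of which one or the other sits on each ring, are next. STAG2 (ENSG00000101972, chromosome X), the form frequently mutated in cancers, was at 247, 234 and 246 CPM in control and 222, 200 and 198 CPM in KO. All KO libraries were below all control libraries, and STAG2 fell by 0.23 (log2; SE 0.045; edgeR adjusted p 7.8e-05). STAG1 (ENSG00000118007, chromosome 3), which contributes strongly to rings held at CTCF sites, was at 55.5, 54.1 and 54.2 CPM in control and 54.7, 54.0 and 52.8 CPM in KO. The STAG1 libraries overlapped. Its log2 fold change was -0.019, with a 95% interval of -0.12 to 0.081 and an edgeR adjusted p of 0.76, and its sign turned under scaling by library size only (0.011). The STAG2 to STAG1 count ratio was 4.44, 4.33 and 4.54 in control and 4.06, 3.70 and 3.75 in KO. That is 86.4% of the control ratio, without overlap (exact two-sided permutation p 0.10, adjusted 0.13).

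NIPBL (ENSG00000164190, chromosome 5), the loader, was at 60.9, 58.7 and 59.4 CPM in control and 59.5, 56.1 and 53.2 CPM in KO, with overlap between the groups. Its log2 fold change was -0.086 (95% interval -0.19 to 0.018; edgeR adjusted p 0.14). Under upper quartile scaling, which lowers the median of all genes to -0.031, NIPBL passed the threshold at -0.12 (edgeR adjusted p 0.039). MAU2, the partner of NIPBL in the loader and not one of the 10, was named for its role after its values were seen. MAU2 rose from 29.5 to 35.5 CPM, by 0.27 on the log2 scale (edgeR adjusted p 0.00022). The median of its neighbours on chromosome 19 was 0.49, and relative to them its value was -0.22.

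WAPL (ENSG00000062650, chromosome 10), which opens the ring and takes it off chromatin, was at 79.5, 74.97 and 75.2 CPM in control and 70.9, 62.8 and 64.0 CPM in KO. The KO libraries were all lower, and WAPL fell by 0.22 (log2; SE 0.051; edgeR adjusted p 0.00051). The NIPBL to WAPL count ratio was 0.766, 0.784 and 0.790 in control and 0.839, 0.893 and 0.831 in KO. It was higher in all KO libraries, a log2 difference of 0.13 (exact two-sided permutation p 0.10, adjusted 0.13).

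The PDS5 proteins bind the ring and take part both in its release and in its acetylation. PDS5B (ENSG00000083642, chromosome 13) was at 37.4, 36.2 and 35.8 CPM in control and 29.3, 33.7 and 31.5 CPM in KO. Its groups did not overlap, and PDS5B fell by 0.20 (log2; SE 0.059; edgeR adjusted p 0.0044). Set against the median of its neighbours on chromosome 13, which was -0.12, the value was -0.079. PDS5A (ENSG00000121892, chromosome 4) was at 210, 192 and 202 CPM in control and 193, 188 and 195 CPM in KO, and the groups overlapped. The log2 fold change of PDS5A was -0.069 (95% interval -0.16 to 0.019; edgeR adjusted p 0.16), and under upper quartile scaling it was -0.10 and passed (edgeR adjusted p 0.032). The PDS5A to PDS5B count ratio overlapped between genotypes, at 5.30 to 5.66 in control and 5.59 to 6.58 in KO (exact two-sided permutation p 0.30, also after adjustment).

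CTCF (ENSG00000102974, chromosome 16) was at 89.5, 86.6 and 85.0 CPM in control and 95.8, 96.8 and 94.4 CPM in KO. All KO libraries lay above all control libraries, and CTCF rose by 0.14 on the log2 scale (SE 0.045; 95% interval 0.047 to 0.23; edgeR adjusted p 0.0087), or 1.10-fold. It was the only one of the 10 genes to rise in this fit. Without control replicate 3 the log2 fold change was 0.12 with an edgeR adjusted p of 0.060, so this call depends on that library; it held when each of the other 5 was left out. The median of the genes next to CTCF on chromosome 16 was 0.080, and relative to it the change was 0.058. By the root mean square difference of centred log2 CPM over the 6 libraries, the genes most like CTCF were ELP6, TBC1D20 and EIF4G3, at 0.013, 0.016 and 0.016. Since that measure includes the difference between genotypes, no test of these genes is given.

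**Figure D2:**
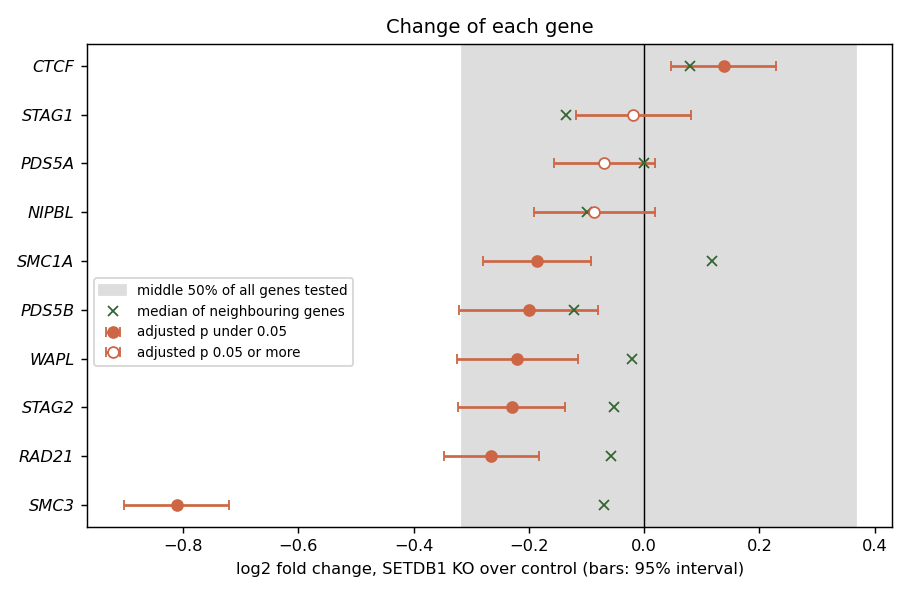
Log2 fold change of each gene (x axis, KO over control; points with 95% intervals from the edgeR fit; filled where adjusted p was under 0.05), the median change of neighbouring genes in a window of 51 (crosses) and the range of the middle 50% of all genes tested (grey). SMC3, at -0.81, lies outside the grey range, and the other 9 genes lie within it.

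Promoter sequences, given by RefSeq on GRCh38.p14, were taken for 9 of the 10 genes in 12 windows, and the 250 bases before the annotated start were examined. RAD21 was left out of this search. GC content was 52.8% to 78.0%, with a median of 70%, against a median of 58.0% over 35116 promoter windows. It was above that median in 11 of the 12 windows, the exception being SMC3, at 52.8%. Both strands were searched for CAGNNGGCG, letters from the core of the known CTCF motif, which were chosen after the promoters and the fold changes had been seen. A match was found in 1 window each of STAG1, STAG2 and PDS5B, or 3 of 12 windows (25%), against 9.63% of all windows and 22.7% of the 7287 windows with at least 70% GC. With the shorter AGNNGGCG, which each CAGNNGGCG contains, 7 of 12 windows (58.3%) and 26.5% of all windows had a match. For these shorter letters no share among windows of high GC content was taken. The part of GC content in that difference was not tested. The sequences of SMC3, which changed most and has no match, and of the 3 genes with a match are shown 5′ to 3′ in the direction of transcription, with the match in capitals.
SMC3: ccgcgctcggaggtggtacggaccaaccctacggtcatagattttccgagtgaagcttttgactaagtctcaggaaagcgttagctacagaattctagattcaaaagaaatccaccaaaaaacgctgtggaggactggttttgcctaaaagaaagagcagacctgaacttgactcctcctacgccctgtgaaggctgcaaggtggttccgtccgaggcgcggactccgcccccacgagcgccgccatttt
STAG1: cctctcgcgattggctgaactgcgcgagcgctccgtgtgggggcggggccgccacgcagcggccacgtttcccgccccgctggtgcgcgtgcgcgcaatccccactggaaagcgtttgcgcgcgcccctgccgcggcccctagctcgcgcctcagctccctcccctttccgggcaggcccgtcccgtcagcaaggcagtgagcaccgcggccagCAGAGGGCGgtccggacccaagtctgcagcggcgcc
STAG2: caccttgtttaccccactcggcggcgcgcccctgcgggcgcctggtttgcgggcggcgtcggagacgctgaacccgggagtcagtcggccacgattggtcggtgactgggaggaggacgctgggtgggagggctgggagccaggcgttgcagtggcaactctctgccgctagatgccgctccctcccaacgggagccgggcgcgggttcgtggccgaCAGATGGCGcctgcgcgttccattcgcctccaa
PDS5B: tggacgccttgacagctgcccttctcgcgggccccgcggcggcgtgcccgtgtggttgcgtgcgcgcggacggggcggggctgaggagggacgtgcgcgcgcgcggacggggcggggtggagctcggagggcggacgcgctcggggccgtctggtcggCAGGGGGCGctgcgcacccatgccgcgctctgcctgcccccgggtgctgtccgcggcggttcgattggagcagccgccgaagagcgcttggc
These windows are chr10:110567445-110567694 (+ strand), chr3:136752379-136752628 (- strand), chrX:123960310-123960559 (+ strand) and chr13:32586202-32586451 (+ strand). The match begins 36 bases before the start of STAG1, 33 before that of STAG2 and 92 before that of PDS5B, in each case on the strand shown. Of these 3 genes, STAG2 and PDS5B fell and STAG1 did not pass the test. A match describes the letters only, and the CTCF peaks, which are on hg19, were not placed on these windows.

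Genes that work with cohesin were then read from the same fit, in lists chosen with earlier results of these data known. Of 10 genes of the cohesin cycle, 7 fell, 1 rose (MAU2) and 2 did not pass, beside 30.0% lower and 32.8% higher among all genes tested. Their median log2 fold change was -0.48. SGO2, a shugoshin that guards cohesin at centromeres, fell from 51.8 ± 1.75 to 21.0 ± 1.65 CPM (SD, n = 3 libraries), which is -1.31 on the log2 scale. SGO2 lies on chromosome 2, where the median of its neighbours was -0.70, and relative to them the change was -0.61. PTTG1, the securin that holds separase in check, fell by 0.75 on the log2 scale, and SGO1, the mitotic shugoshin, fell by 0.60. The separase gene itself, ESPL1, was at 71.6 CPM in control and 69.9 in KO (edgeR adjusted p 0.55).

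The enzymes that acetylate and deacetylate SMC3 are in this list too and are named for that role after their values were seen. ESCO2, the acetyltransferase of S phase, fell from 78.5 to 51.9 CPM (log2 fold change -0.60, edgeR adjusted p 1.1e-11). HDAC8, the deacetylase, fell from 11.04 to 8.005 CPM (log2 fold change -0.47, edgeR adjusted p 3.1e-05). ESCO1 was at 33.3 CPM in control and 34.8 in KO (edgeR adjusted p 0.32). CDCA5, or sororin, which counters WAPL once SMC3 is acetylated, fell by 0.49 on the log2 scale, and its value relative to its neighbours on chromosome 11 was -0.79.

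Markers of cycling cells moved with these genes. All 21 proliferation genes fell, beside 30.0% of all genes, with a median log2 fold change of -0.53. Under library size only, without an expression filter, with DESeq2, and without control replicate 2, control replicate 3, KO replicate 2 or KO replicate 3, 20 of the 21 were called, and the libraries of TYMS overlapped. Their summed level was 3805 to 3925 CPM in control and 2605 to 2646 CPM in KO. BUB1, a spindle checkpoint kinase, changed by -1.21, and MCM6, a subunit of the replicative helicase, by -1.06. Both are on chromosome 2 and were at -0.52 and -0.42 relative to their neighbours. CDC20, an activator of the anaphase-promoting complex on chromosome 1, changed by -0.87. The part of these genes in the cohesin results was not tested.

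Of 8 condensin subunits, which compact mitotic chromosomes, 6 fell, 0 rose and 2 did not pass (median -0.41), again beside 30.0% lower and 32.8% higher over all genes. NCAPH, the kleisin of condensin I, fell from 69.0 ± 1.16 to 30.7 ± 1.01 CPM (SD, n = 3 libraries); it too is on chromosome 2, and its change of -1.16 was -0.74 relative to its neighbours. NCAPG2 of condensin II and SMC2, an ATPase of both condensins, changed by -0.47 and -0.44. Of 9 genes of the SMC5/6 complex, which acts in DNA repair, 4 fell, 1 rose and 4 did not pass (median -0.22). The 5 called of 9 are a smaller share than the 62.8% of all genes. SMC6 and SMC5 changed by -0.92 and -0.54, and SMC6, on chromosome 2, was at -0.33 relative to its neighbours. EID3 rose by 0.67. For comparison, SMC3 on chromosome 10 had a change of -0.74 relative to neighbours, whose median was -0.070.

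Of 10 other factors found at CTCF sites, 4 fell, 3 rose and 3 did not pass (median -0.020), shares near the 30.0% lower and 32.8% higher of all genes. TOP2A, the topoisomerase of dividing cells, fell from 1318 ± 36.8 to 891 ± 34.8 CPM, and PARP1 fell by 0.21 on the log2 scale. MAZ, a zinc finger factor, rose from 14.1 ± 1.27 to 19.4 ± 1.81 CPM (SD, n = 3 libraries in each case). YY1 was at 136 CPM in control and 143 in KO (edgeR adjusted p 0.15), and ZNF143 at 22.96 and 21.8 CPM (edgeR adjusted p 0.29).

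Of the 5 germline paralogs, 3 were expressed enough to test. SMC1B, the meiotic counterpart of SMC1A, had 9, 5 and 13 counts in control and 57, 109 and 36 counts in KO, or 0.37 ± 0.086 and 2.101 ± 0.45 CPM (SD, n = 3). SMC1B passed the expression filter only through the KO libraries, where it is high, so its fold change and call are not given as a test. STAG3 rose from 8.66 to 11.4 CPM (edgeR adjusted p 0.00014). REC8, the meiotic kleisin, was at 4.73 CPM in control and 3.69 in KO with overlapping libraries; its edgeR adjusted p of 0.029 became 0.085 with DESeq2, and 0.16, 0.11 and 0.072 without control replicate 2, KO replicate 1 and KO replicate 2. CTCFL, the testis paralog of CTCF, had at most 1 count in any library, and RAD21L1 at most 2.

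**Figure D3:**
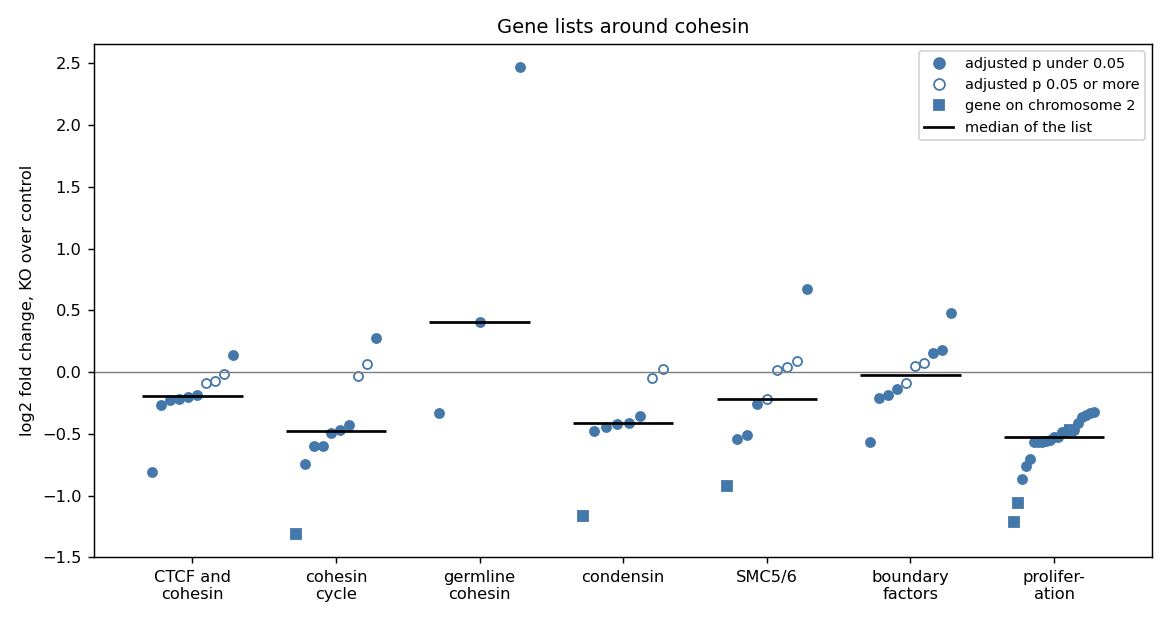
Log2 fold change (y axis, KO over control) of every tested gene of each list (points; filled where adjusted p was under 0.05; squares for genes on chromosome 2), with the median of the list as a line. The lowest points of the cohesin cycle, condensin, SMC5/6 and proliferation lists are squares, and SMC3 is the lowest point of the first column at -0.81. The highest point of the germline column is SMC1B, which passed the expression filter only through KO. Its place, its fill and its part in that median are not to be read as a test.

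The CTCF and TAD lists give the other side of this machinery. They hold 1 list per genotype, so intervals cover counting error only. CTCF peaks numbered 23903 in control and 34474 in KO, 1.44 times as many, beside a CTCF transcript that was 1.10-fold higher. The KO list did not simply add to the control list. On the autosomes and X, 10544 of 23875 control peaks overlapped no KO peak, and 21122 of 34419 KO peaks overlapped no control peak. TADs numbered 6118 and 6283, 1.03 times as many. The log2 ratio was 0.53 (95% interval 0.50 to 0.55) for peaks and 0.038 (-0.012 to 0.089) for TADs. KO peaks were also wider, with a median of 290 bp against 243 bp. Counting only peaks at least as wide as the median control peak gave 12036 and 25441 peaks, a log2 ratio of 1.08. Sequencing depth of the ChIP-seq and Hi-C libraries is not given in the sources used here, and its part in these numbers was not tested.

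By chromosome, CTCF peaks were more numerous in KO on 22 of 23 chromosomes and TADs on 21 of 23. The ratio of CTCF peak numbers ranged from 0.81 on chromosome 2 to 2.65 on chromosome 4, with a median of 1.45. The ratio of TAD numbers stayed between 0.99 and 1.10, and no chromosome had an interval that left out 0 on the log2 scale. On chromosome 2, where peaks fell in number from 2733 to 2201, TADs numbered 479 and 490. On chromosome 4, with 375 and 992 peaks, TADs numbered 358 and 386. In the RNA-seq fit, the median log2 fold change of all tested genes placed on chromosome 2 was -0.54, and on chromosome 4 it was 0.032. The shift on chromosome 2 was thus not limited to CTCF peaks, and its part in the peak numbers was not tested. Across the 23 chromosomes the log2 ratios had a Pearson r of 0.11 and a Spearman rho of -0.29, as a description: the points share the same peak and TAD lists.

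**Figure D4:**
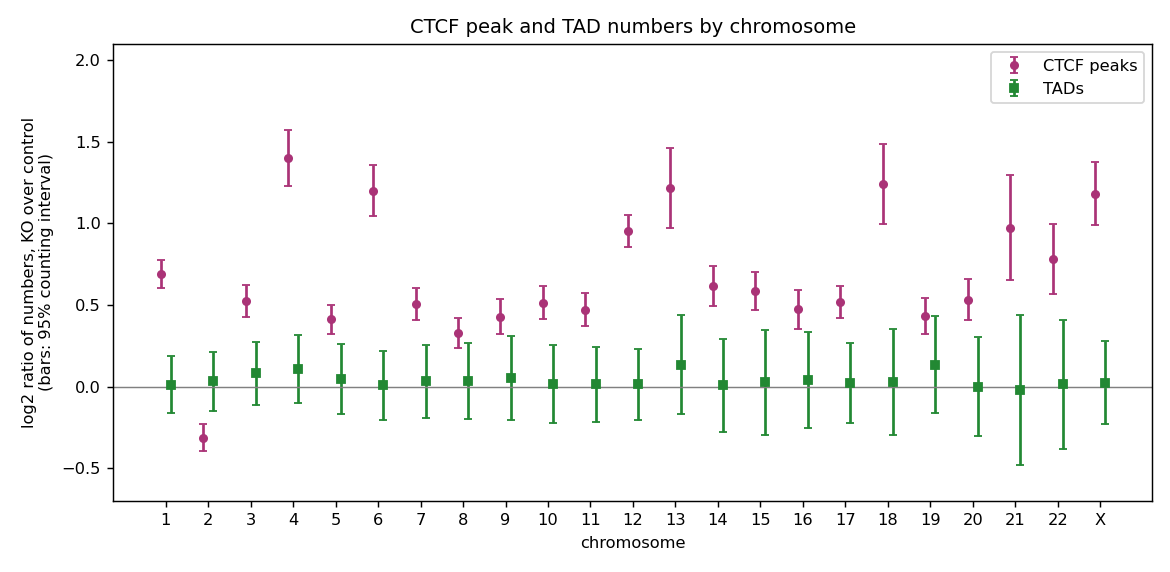
Log2 ratio of KO over control numbers (y axis) of CTCF peaks (circles) and TADs (squares) on each chromosome (x axis), with 95% counting intervals. TAD ratios lie near 0 on every chromosome, while CTCF ratios range from -0.31 on chromosome 2 to 1.40 on chromosome 4.

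In every class, most CTCF peaks lay away from boundaries. Peaks found only in KO were at a boundary less often than shared peaks and more often than peaks found only in control. In control, 22.04% (21.5 to 22.6, Wilson) of CTCF peaks were centred within 20 kb of a TAD boundary, and 24.1% (23.6 to 24.5) in KO. Windows of this size take up 9.18% and 9.42% of the length covered by TADs. Peaks shared by the genotypes, with an overlap of at least 1 base, were at a boundary in 32.4% (31.6 to 33.2) of cases in control and 32.3% (31.5 to 33.1) in KO. Peaks found only in KO were there in 18.9% (18.4 to 19.5), and peaks found only in control in 8.95% (8.42 to 9.51). The median distance to a boundary was 39.5 kb for shared control peaks, 81.8 kb for KO-only peaks and 186 kb for control-only peaks.

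Seen from the TADs, more edges had a CTCF peak nearby in KO, whose list held 34474 peaks against 23903 in control. A list with more peaks can reach more edges by number alone, and the part of peak number in these shares was not tested. TADs with a peak within 20 kb of both edges were 29.9% (28.8 to 31.1) in control and 49.2% (47.9 to 50.4) in KO, and those with none at either edge were 27.3% (26.2 to 28.4) and 11.7% (10.97 to 12.6). With the control boundaries used for both peak lists, the KO share with both edges was 49.3%, as large as with the KO boundaries. Boundaries with at least 2 CTCF peaks were 18.9% in control and 32.5% in KO. TADs that held no peak at all numbered 1027 (16.8%) and 395 (6.29%).

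**Figure D5:**
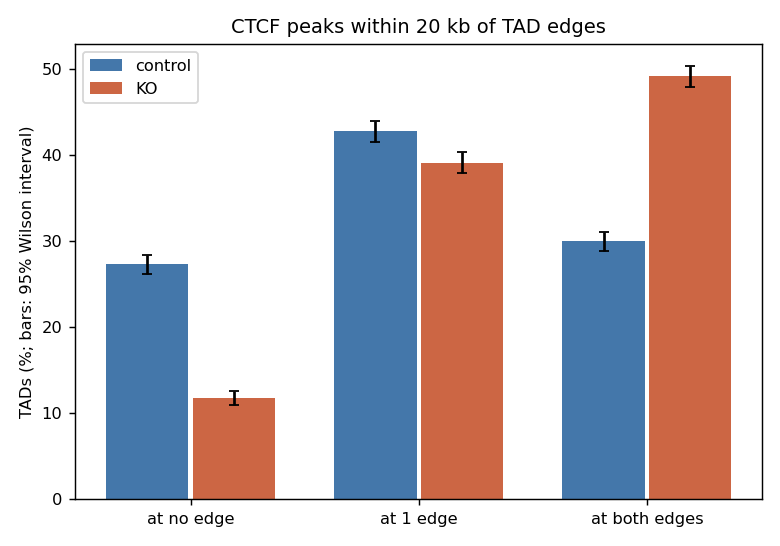
Share of TADs (y axis, %) with a CTCF peak within 20 kb of no edge, 1 edge or both edges, in control and KO, with 95% Wilson intervals. TADs with a peak at both edges make up 29.9% in control and 49.2% in KO.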

How the data were processed

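RNA-seq, CTCF ChIP-seq and Hi-C of control and SETDB1 KO A549 cells were used. The deposited gene table holds whole-number counts per gene; the RNA kit was a stranded one, per the labels; STAR 2.6.1c, edgeR 3.30.0, Bowtie2 2.2.3, SAMtools 1.5, Picard and MACS2 are named, without roles, and the build is hg19, per the submitters' processing notes. Counter, strand setting, peak threshold, TAD caller and pooling are not given in the sources used here. The peak and TAD lists hold positions only, and TAD edges lie on a grid of 20 kb. Of 62486 IDs, 93.8% matched a symbol.

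Genotype was tested by quasi-likelihood in edgeR 4.0.16 under R 4.3.3, after filterByExpr and TMM scaling, with robust dispersion and Benjamini-Hochberg adjustment (threshold 0.05). SE is the absolute log2 fold change over the root of F. Neighbours were the tested genes around a gene in a window of 51 by RefSeq order (GRCh38.p14). Count ratios were compared by exact permutation tests (scipy 1.17.1). Alternatives used DESeq2 1.42.0 and limma 3.58.1. Named genes were SETDB1, all members, the 3 largest changes with adjusted p under 0.05 of each list (mean CPM not under 1, and 10 counts or more in whichever genotype was lower) and the 3 genes most like CTCF (mean CPM of at least 5). The members and lists were chosen with earlier results of these data known. Replicate numbers were not used as pairs in the main fit, and the correlations given below do not settle whether they pair the libraries. Overlapping genes with counts held at most 1.27% of a member's counts. Every pair of libraries within a genotype differed by more than sampling noise (chi-square per degree of freedom 1.66 or more). No per-sample column was left unmapped (0). The fit was tested on simulated data.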

Additional observations from a re-analysis of the deposited data

How the results depend on the processing

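Of 985 values under alternatives, 927 stayed the same by the rule for their kind, 32 moved, 19 no longer passed, 3 newly passed and 4 turned in sign. For single genes the rule was direction and side of the threshold, or the spread between libraries for values relative to neighbours. Counts of genes had to stay within a set fold range of the main count, and count ratios only had to keep their direction. Peak and TAD numbers and shares had to stay within the main interval. A count of genes could thus change, as from 7 to 9 members, and still be labelled the same. Of the 10 genes, 7 were called under every other RNA-seq setting except upper quartile scaling (9, with NIPBL and PDS5A) and leaving out control replicate 3 (6, without CTCF). The 4 that turned were STAG1 under library size only (0.011), without an expression filter (0.019) and relative to neighbours (0.12), and NIPBL relative to neighbours (0.014); neither had passed. Leaving out each library, the number of members higher in KO was 0 to 1, and the number of germline cohesin genes lower in KO 0 to 1 (0 without control replicate 2, KO replicate 1 or KO replicate 2); the latter was 0 under library size only, without a filter and with DESeq2. SMC3 stayed between -0.85 and -0.77 over the 15 alternatives with a test, and was -0.74 relative to neighbours. With a replicate block, 11655 of all genes were called, against 11157, and 7 members in both. Same-numbered libraries had correlations of 0.11, 0.064 and 0.047, and unlike-numbered ones ranged from -0.11 to 0.048. Control replicate 3 correlated best with KO replicate 2, at 0.048 against 0.047 for its own number. The block changed no call among the 10 genes.

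CTCF peaks at least as wide as the median control peak gave a log2 ratio of 1.08. Within 10 kb and 40 kb, CTCF peaks at boundaries were 11.3% and 35.1% in control and 12.7% and 38.7% in KO, and TADs with both edges 12.1% and 49.1% in control and 23.4% and 73.2% in KO. TAD edges lie on a grid of 20 kb, so the 10 kb window is narrower than the step between possible edges. Wider windows hold more peaks by construction. Apart from that, causes were not tested. For precision, 3 libraries against 3 cannot give an exact p below 0.10.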

Other observations

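Ratios of KO over control numbers above 2 were found on chromosomes 4, 6, 13, 18 and X, which had 375, 476, 190, 189 and 317 control peaks, and on chromosomes 12 and 21, with 1249 and 115 control peaks, the ratios were 1.94 and 1.97. On chromosome 22, with 273 control peaks, the ratio was 1.72. Chromosome 1, with 1710 control peaks, had a ratio of 1.61, and chromosome 5, with 1761, one of 1.33. Every chromosome with 476 control peaks or fewer thus had a ratio of 1.72 or more, and chromosome 12 had a high ratio with 1249 control peaks. The control number is the denominator of this ratio, and no relation was tested. The median log2 fold change of tested genes was 0.37 on chromosome 12 and 0.34 on chromosome 19, where the peak ratio was 1.35. The part of such shifts in the peak numbers was not tested.

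Peaks shared by the genotypes were wider in the KO list, with a median of 355 bp against 258 bp in the control list, and KO-only peaks had a median width of 260 bp against 228 bp for control-only peaks.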
